A study of Mus musculus with 5 samples.

Results

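The neurotrophins, the glial cell line-derived neurotrophic factor and their receptors were followed through the juvenile mouse ovary as 8 genes, Bdnf, Ntf3, Ntrk2, Ntrk3, Ngfr, Gdnf, Gfra1 and Gfra2. These members were taken as a named list from the 31053 genes that the deposited matrices hold, and each of them was found once, by its symbol, in all 5 libraries. The libraries were single-cell RNA libraries of live-sorted cells from trypsin-dissociated ovaries, with 1 library at each of 2, 3, 4, 5 and 6 wk of age. The animals of all 5 libraries were C57BL6/J mice with no treatment, so the libraries differ by age and by library together. How many animals gave each library is not given in the sources used here, and no age has a replicate, so no test between ages was possible. Groups of cells were compared within each library, as ratios and ranges with no test.

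Neurotrophins are secreted growth factors best known for keeping neurons alive, and they act through receptor tyrosine kinases of the Trk family. BDNF and NT-4 bind TrkB (the product of Ntrk2), NT-3 (the product of Ntf3) binds mainly TrkC (the product of Ntrk3), and all of them also bind the low-affinity receptor p75NTR (the product of Ngfr). GDNF and neurturin bind the membrane-anchored co-receptors GFRalpha1 (the product of Gfra1) and GFRalpha2 (the product of Gfra2), which present them to the kinase RET or, in some cells, to the adhesion molecule NCAM. In the ovary these factors are known from follicle assembly, from the innervation of stroma and vessels, and from the maturation of the oocyte.

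A level is the count of unique molecular identifiers (UMIs, 1 per captured transcript) of a gene in a group of cells of a library over all UMIs of the same cells, on the usual CPM scale. Its error is the exact Poisson interval at 95%, which covers counting error only, and a spread over libraries (SD) mixes age with library. Levels are compared between cells and not between genes. The libraries held 7779 to 11077 cells and 93438618 to 144609431 UMIs, the median cell had 9056 to 12424 UMIs, and any pair of libraries shared 18 to 35 cell barcodes. Cells were grouped by clustering without the 8 members or their pathway genes, and groups were named from marker lists. This gave 18957 mesenchymal cells in 10 subgroups, 17765 granulosa-like cells in 12 groups, 860 pericyte-like, 713 blood endothelial-like, 228 lymphatic endothelial-like, 493 hematopoietic-like, 322 surface epithelial-like and 90 rete ovarii-like cells, and 8735 cells were left unnamed. Oocytes formed no group of their own (19 cells had UMIs of at least 3 of 5 germ cell markers), and neither did nerve tissue, as 11 cells had UMIs of at least 3 of 6 Schwann and glial markers and 0 cells had UMIs of at least 3 of 5 neuronal markers. The glial transcription factor Sox10 gave 22 UMIs in 11 cells of the whole series.

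The 8 genes lie on 8 chromosomes (GRCm38, GENCODE vM21). Bdnf is at chr2:109674700-109727007 on the plus strand, Ntf3 at chr6:126101412-126166910 on the minus strand, Gdnf at chr15:7810846-7837575 on the plus strand, Ntrk2 at chr13:58806569-59133970 on the plus strand, Ntrk3 at chr7:78175959-78738012 on the minus strand, Ngfr at chr11:95568818-95587735 on the minus strand, Gfra1 at chr19:58235604-58455909 on the minus strand and Gfra2 at chr14:70890120-70979838 on the plus strand. The kinase genes are long, at 327.4 kb for Ntrk2 and 562.1 kb for Ntrk3, and each is annotated with several transcripts (10 and 20). Reads of the 3′ end that are summed per gene do not tell apart the kinase-containing and truncated TrkB and TrkC forms, so every Ntrk2 and Ntrk3 value below is the sum of them.

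RefSeq promoter windows (GRCm38.p6, 250 bases before to 50 bases after the annotated start) were held for 6 of the 8 members. Bdnf had 7 windows, Ntf3 and Gdnf had 2 each, and Ntrk2, Ngfr and Gfra1 had 1 each. Those of Ntrk2 and Ngfr are shown because, with the 5 libraries summed, these receptor genes had their highest level in the same stromal subgroup. Those of Gdnf and Gfra1 are shown because their highest levels, by the same sum, lay outside the mesenchyme. Capitals mark GGGCGG, the GC box, on either strand, and the sequences read 5′ to 3′ on the strand of the gene.
Ntrk2, chr13:58806319-58806618, plus strand: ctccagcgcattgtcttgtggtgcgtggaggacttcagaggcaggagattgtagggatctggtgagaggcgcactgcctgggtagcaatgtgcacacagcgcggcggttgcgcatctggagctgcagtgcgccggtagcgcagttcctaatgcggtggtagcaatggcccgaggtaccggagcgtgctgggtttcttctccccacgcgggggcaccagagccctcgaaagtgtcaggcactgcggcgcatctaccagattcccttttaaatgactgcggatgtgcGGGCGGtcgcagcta
Ngfr, chr11:95587649-95587948, minus strand: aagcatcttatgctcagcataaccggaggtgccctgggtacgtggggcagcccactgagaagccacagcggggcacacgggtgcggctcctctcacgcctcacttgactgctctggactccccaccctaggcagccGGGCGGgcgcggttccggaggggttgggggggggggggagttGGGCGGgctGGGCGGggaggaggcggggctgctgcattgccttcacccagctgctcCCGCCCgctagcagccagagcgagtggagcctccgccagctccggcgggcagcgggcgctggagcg
Gdnf, chr15:7809798-7810097, plus strand, the upstream window of 2: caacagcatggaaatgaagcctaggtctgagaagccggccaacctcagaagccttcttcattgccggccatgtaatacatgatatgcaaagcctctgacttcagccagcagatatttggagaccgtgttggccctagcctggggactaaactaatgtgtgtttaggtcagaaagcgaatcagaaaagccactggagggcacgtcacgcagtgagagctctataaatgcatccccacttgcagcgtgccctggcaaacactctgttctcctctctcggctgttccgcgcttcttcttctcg
Gfra1, chr19:58455349-58455648, minus strand: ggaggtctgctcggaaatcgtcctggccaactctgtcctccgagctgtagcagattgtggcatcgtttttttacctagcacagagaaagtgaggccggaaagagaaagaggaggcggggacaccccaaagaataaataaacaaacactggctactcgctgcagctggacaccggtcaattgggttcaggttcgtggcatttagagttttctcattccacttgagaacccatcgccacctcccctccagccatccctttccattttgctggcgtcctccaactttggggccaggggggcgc

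GGGCGG was found 4 times in the Ngfr window and 1 time in the Ntrk2 window, and neither in the Gdnf nor in the Gfra1 window. Of all 32851 RefSeq windows of this length, 35.7% hold it. The Ntrk2 and Ngfr windows hold 23 CpG dinucleotides each, against a median of 7 over all windows, and the shown Gdnf and Gfra1 windows hold 11 and 12. The shown Gdnf window holds 1 TATAAA, which 13.6% of all windows hold. The downstream Gdnf window, which is not shown, holds 22 CpG and 0 TATAAA. The other letters searched on both strands, CACGTG (7.15% of all windows) and TGACGTCA (1.79%), were in none of these 4 windows, and no matches of different motifs overlapped. A match is a description of the letters and not of a binding site.

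Across the ovary the 8 genes divided by lineage. Bdnf, Ntrk2, Ntrk3, Ngfr and Gfra2 were found in mesenchymal cells and pericyte-like cells and were under 2 CPM in each granulosa-like group. Ntf3 was concentrated in pericyte-like cells. Gdnf was found in granulosa-like and mesenchymal cells, with more of its UMIs in the granulosa-like cells, and Gfra1 was highest in rete ovarii-like cells. Mesenchymal cells made up 39.4% of all cells and gave 86.3% of the Bdnf UMIs, 80.7% of the Ntrk2 UMIs, 85.9% of the Ntrk3 UMIs, 87.8% of the Ngfr UMIs and 79.8% of the Gfra2 UMIs. Pericyte-like cells made up 1.79% of all cells and gave 47.7% of the Ntf3 UMIs, and mesenchymal cells gave 45.0% of them. Granulosa-like cells, 36.9% of all cells, gave 59.2% of the Gdnf UMIs, and the 90 rete ovarii-like cells, 0.187% of all cells, gave 41.6% of the 291 Gfra1 UMIs. Granulosa-like cells were also deeper, with a median of 14830 UMIs against 9813 in mesenchymal cells. Over the 5 libraries their mean Gdnf level was 14.0 CPM, against 9.89 CPM in mesenchymal cells.

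**Figure D1:**
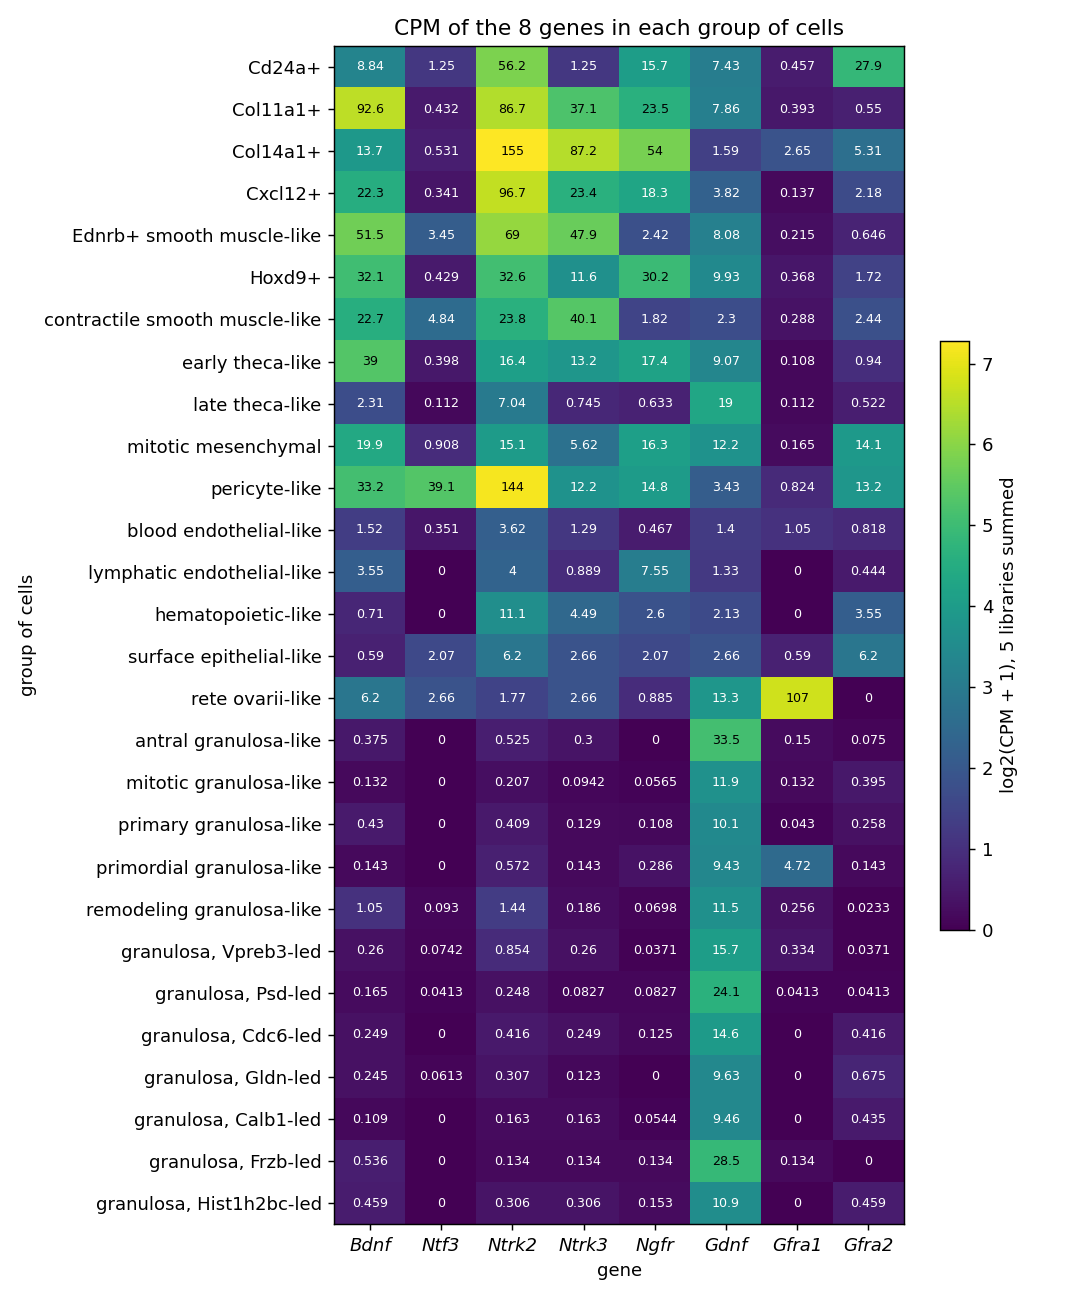
CPM of the 8 genes (columns) in 28 groups of cells that share no cell (rows), with the 5 libraries summed; the colour is log2(CPM + 1) and the printed number is the CPM. The Bdnf, Ntrk2, Ntrk3 and Ngfr columns are bright in most mesenchymal rows and dark in granulosa rows, Gdnf is above 9 CPM in each granulosa row, and the brightest Gfra1 cell is the rete ovarii-like row at 107 CPM.

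The ligand Bdnf was highest in the Col11a1-positive stromal cells, at 92.6 CPM over the 5 libraries (95% interval 88.9 to 96.4). This subgroup held a cluster of 1656 cells led by Grin2b and one of 799 cells led by Ell2 and Nr4a3. The Grin2b-led cluster had nearly the same mean z-score, taken over clusters, for the Col11a1-positive markers (1.328) and the Sfrp1-positive markers (1.327). Its name is thus close to a tie. By library the Bdnf level of the Col11a1-positive cells was 32.0, 104, 130, 161 and 98.8 CPM at 2, 3, 4, 5 and 6 wk. The 2 wk library was the lowest and the other four were more than 3 times as high, with an SD over the 5 libraries of 47.9 CPM. The Ednrb-positive smooth muscle-like cells followed at 51.5 CPM and the early theca-like cells at 39.0 CPM, with pericyte-like and Hoxd9-positive cells at 33.2 and 32.1 CPM. Over libraries the ranges of these neighbours overlapped, but the ranges mix the ages. They were, for example, 20.3 to 98.9 CPM in the Ednrb-positive smooth muscle-like cells and 11.9 to 61.8 CPM in the early theca-like cells. Within each of the 5 libraries the Col11a1-positive cells were above the Ednrb-positive smooth muscle-like cells. The latter were above the early theca-like cells at 2 to 5 wk and below them at 6 wk (41.3 against 57.2 CPM).

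Theca-like cells differed by stage in Bdnf. Late theca-like cells, the steroidogenic cells with Cyp11a1 and Cyp17a1, had 2.19, 3.37, 3.48, 1.42 and 3.52 CPM of Bdnf at 2 to 6 wk, and early theca-like cells, marked by the hedgehog target Hhip and by Mest, had 11.9, 41.1, 61.8, 32.0 and 57.2 CPM. The ranges of the early and late theca-like cells did not overlap. A Bdnf UMI was found in 29.0% of Col11a1-positive cells (95% exact binomial interval 27.3 to 30.9), and in 0.467% of granulosa-like cells. In hematopoietic-like cells, taken for comparison, the share was 0.406%. The median depths of these cells were 9713, 14830 and 6699 UMIs, and after each cell was thinned to 5000 UMIs the shares were 21.2%, 0.213% and 0.34%. Cells with fewer UMIs were left out of this and every later thinned share. These were 200 of the 2455 Col11a1-positive, 850 of the 17765 granulosa-like and 199 of the 493 hematopoietic-like cells, and in the other groups thinned below 160 of 818 Col14a1-positive, 271 of 860 pericyte-like, 99 of 940 antral-like, 116 of 1898 Cd24a-positive and 6 of 90 rete ovarii-like cells. The granulosa-like share of Bdnf was thus close to the hematopoietic-like share. For Ntrk2 the hematopoietic-like share was 3.65%, against 0.76% in granulosa-like cells. Hematopoietic-like shares are therefore a comparison and not a measured level of free RNA.

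The ligand Ntf3 was concentrated in the vessel wall. Pericyte-like cells, which wrap small vessels and were named from Rgs5, Notch3, Kcnj8 and Abcc9, had 36.7, 25.2, 20.5, 35.9 and 53.4 CPM at 2, 3, 4, 5 and 6 wk. The next group, contractile smooth muscle-like cells, had 1.08, 1.97, 3.29, 6.35 and 9.51 CPM, so the ranges of the first and the second group did not overlap. Ednrb-positive smooth muscle-like cells had 0.572, 0.363, 3.99, 4.35 and 5.65 CPM. Both smooth muscle-like groups were lowest at 2 and 3 wk and highest at 6 wk. The Myoc-led cluster, 1674 of the 1918 contractile cells, had a mean z-score of 2.038 for the contractile markers. For the Ednrb-positive smooth muscle markers its score was 2.046. It was named from its leading genes, so this name is also close to a tie. A Ntf3 UMI was found in 19.7% of pericyte-like cells (17.0 to 22.5), and in 4.33% of contractile smooth muscle-like cells. None was found in the 493 hematopoietic-like cells (0, which allows up to 0.745% by the exact binomial interval). The median pericyte-like cell had 6867 UMIs, and thinned to 5000 UMIs the pericyte share was 16.1%.

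The summed level of the 5 pericyte markers was 3255 to 5650 CPM in the pericyte-like cells of the 5 libraries and 26.5 to 38.3 CPM in all mesenchymal cells together. It was not taken in the smooth muscle-like groups alone. Whether pericytes or their RNA had a part in the Ntf3 values of those groups was not tested. The blood endothelial-like cells that pericytes surround had 0.351 CPM of Ntf3 (0.0723 to 1.02), and the granulosa-like cells had 8 UMIs of it in all, or 0.0279 CPM.

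The receptor kinase gene Ntrk2 was the most widespread of the receptors in the mesenchyme. It was highest in Col14a1-positive fibroblast-like cells, which also carry Pi16 and Clec3b, at 143, 163, 124, 186 and 172 CPM from 2 to 6 wk, and in pericyte-like cells at 110, 123, 173, 199 and 123 CPM. These groups overlapped, and in both the counting interval of the 6 wk to 2 wk ratio spanned 1. In the first clustering, the cluster led by Clec3b, Dlk1 and Col14a1 had a mean z-score of 1.81 for stromal markers. For Schwann and glial markers its score was higher, at 2.98, but under 3 of those markers passed the detection limits, so it was named stromal. Whether glial RNA had a part in the receptor levels of Col14a1-positive cells was not tested. Cxcl12-positive cells followed at 28.3, 57.1, 78.1, 142 and 136 CPM and Col11a1-positive cells at 38.4, 79.0, 80.4, 116 and 134 CPM. In these stromal subgroups the 2 wk library was the lowest and the 5 and 6 wk libraries were the highest. A Ntrk2 UMI was found in 51.3% of Col14a1-positive cells (47.9 to 54.8), in 50.3% of pericyte-like cells, in 27.3% of all mesenchymal cells and in 0.76% of granulosa-like cells. The hematopoietic-like share was 3.65% (2.18 to 5.71). With a median depth of 8653.5 UMIs in Col14a1-positive cells, the thinned share was 41.6% there and 3.40% in hematopoietic-like cells.

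Endothelial cells had little of it, with 3.62 CPM in the blood endothelial-like and 4.00 CPM in the lymphatic endothelial-like cells, and the hematopoietic-like cells had 11.1 CPM. The lowest mesenchymal subgroup was again late theca-like, at 7.04 CPM. Of the mesenchymal cells with a Bdnf UMI, 35.5% also had a Ntrk2 UMI, against 27.3% of all mesenchymal cells. Cells with a UMI of any gene are on average deeper, and this was not corrected.

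Ntrk3, the gene of the NT-3 receptor kinase, was highest in Col14a1-positive cells too, at 125, 99.5, 68.7, 31.8 and 49.3 CPM from 2 to 6 wk. The 2 and 3 wk libraries were the highest there and the 5 wk library the lowest. It differed less between libraries in the muscle and Col11a1-positive groups, with 42.0, 43.4, 40.0, 39.2 and 37.3 CPM in contractile smooth muscle-like cells, 50.1, 58.9, 51.4, 41.5 and 44.0 CPM in Ednrb-positive smooth muscle-like cells and 37.3, 40.0, 40.0, 33.6 and 35.4 CPM in Col11a1-positive cells. The ranges of the contractile and Col11a1-positive groups overlapped, and their SDs over the 5 libraries were 2.39 and 2.84 CPM. In pericyte-like cells, in contrast, Ntrk3 was 33.5, 26.4, 17.1, 3.54 and 1.16 CPM, from 42, 23, 15, 6 and 3 UMIs. There the later the library the lower the level was, and the 6 wk level was 0.0346 of the 2 wk level (counting interval 0.00687 to 0.108).

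The summed level of the 5 stromal markers in the pericyte-like cells was 329, 232, 295, 212 and 292 CPM at these ages. Whether stromal RNA had a part in the pericyte values of Ntrk3 was not tested. Cd24a-positive and late theca-like cells had almost none of this gene, at 1.25 and 0.745 CPM. A Ntrk3 UMI was found in 35.7% of Col14a1-positive cells (32.4 to 39.1) and in 2.84% of hematopoietic-like cells (1.56 to 4.72), and the thinned shares were 28.7% and 2.04%.

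Ngfr, the gene of the shared low-affinity receptor, was found in fibroblast-like subgroups and hardly in muscle. Col14a1-positive cells had 71.1, 39.9, 36.9, 54.5 and 40.8 CPM from 2 to 6 wk and Hoxd9-positive cells, a Wt1-expressing subgroup, had 37.5, 40.5, 24.1, 14.7 and 21.0 CPM. These ranges overlapped, whereas Col11a1-positive cells, at 19.1 to 29.4 CPM, overlapped the Hoxd9-positive cells and lay below every library of the Col14a1-positive cells. Contractile and Ednrb-positive smooth muscle-like cells had 0.438 to 4.52 and 1.10 to 4.86 CPM, below every library of the 3 fibroblast-like subgroups just named. The smooth muscle-like groups thus had Ntrk3 without much Ngfr. A Ngfr UMI was found in 28.9% of Col14a1-positive cells (25.8 to 32.1) and in 1.42% of hematopoietic-like cells (0.573 to 2.90), and the thinned shares were 22.9% and 1.36%.

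**Figure D2:**
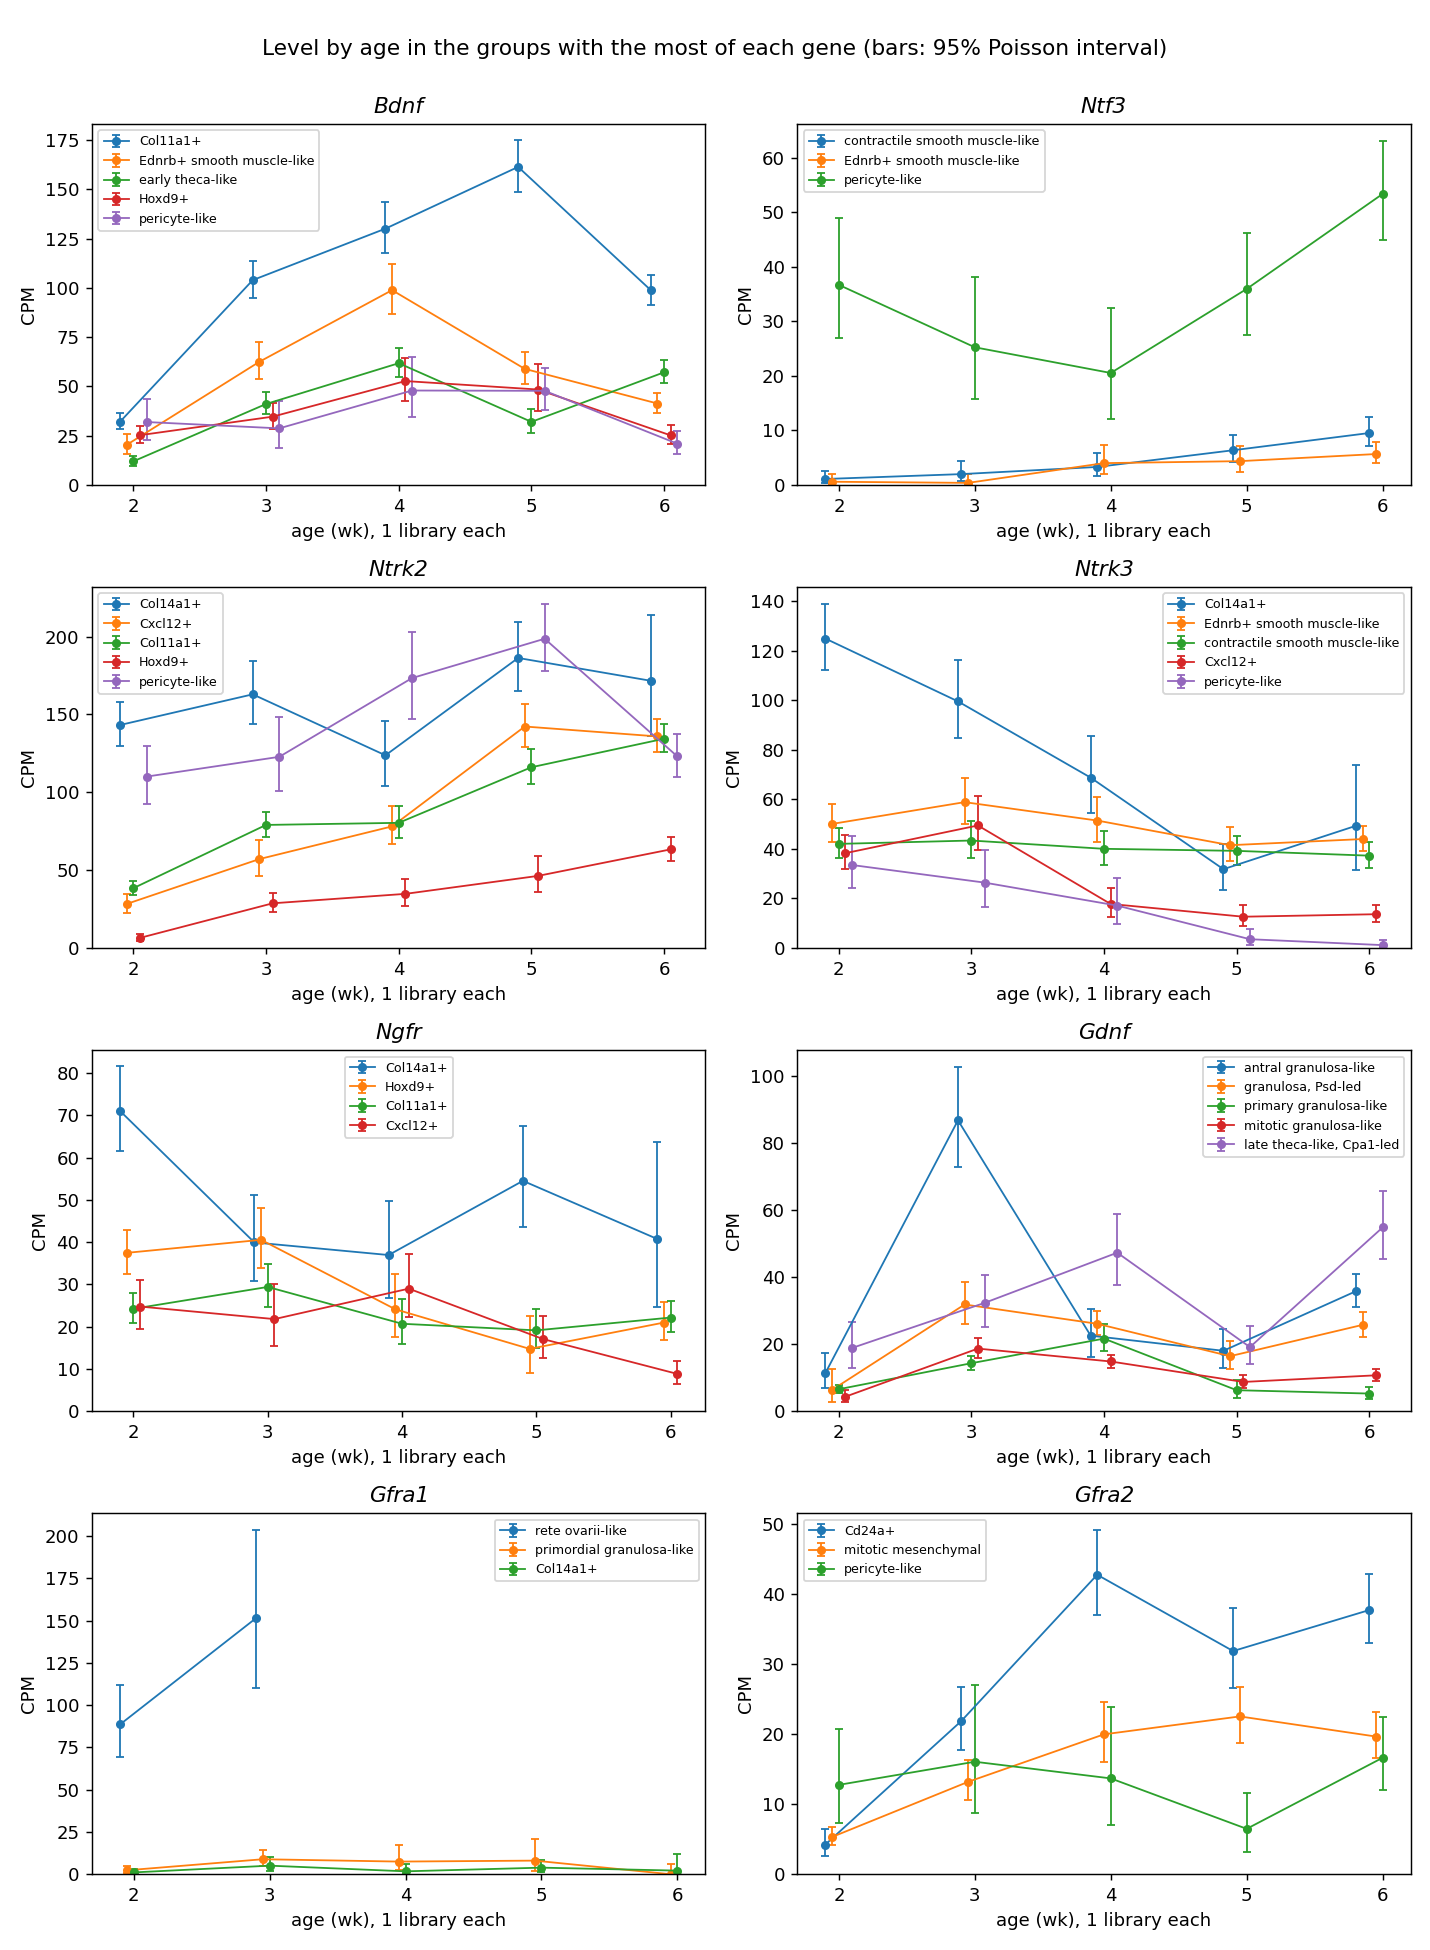
CPM (vertical axes) against age in wk (horizontal axes) of each gene in the groups with the most of it, 1 library per age, with 95% Poisson intervals and only groups with at least 20 cells in that library. Ntrk2 is lowest at 2 wk in the Cxcl12-positive, Col11a1-positive and Hoxd9-positive cells, Ntrk3 in pericyte-like cells is at 3.54 and 1.16 CPM in the 5 and 6 wk libraries, and rete ovarii-like cells have points at 2 and 3 wk.

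Gdnf was the only member found at over 9 CPM in granulosa-like cells, where each of the 12 groups had between 9.43 CPM (primordial-like) and 33.5 CPM (antral-like). Over all granulosa-like cells its level was 6.26, 20.4, 19.9, 10.1 and 13.1 CPM at 2, 3, 4, 5 and 6 wk, lowest at 2 wk and highest at 3 and 4 wk. Antral-like granulosa cells, named from Tdrd5, Nap1l5 and Inhba, had 11.3, 86.7, 22.5, 18.0 and 35.8 CPM. The 3 wk library stands apart with 135 UMIs in 134 cells, and without it the range is 11.3 to 35.8 CPM, which overlaps that of the other groups. The unnamed granulosa group led by Frzb had 28.5 CPM and the one led by Psd had 24.1 CPM over the 5 libraries.

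Primordial-like and primary-like granulosa cells had a like course over the libraries, at 4.37, 18.3, 18.0, 6.04 and 5.01 CPM and at 6.51, 14.3, 21.6, 6.24 and 5.23 CPM. Both were higher at 3 and 4 wk than at the other ages. A Gdnf UMI was found in 14.99% of all granulosa-like cells (14.5 to 15.5), and in 24.5% of antral-like granulosa cells, against 1.83% of hematopoietic-like cells (0.838 to 3.44). The median depths were 14830, 14312 and 6699 UMIs, and thinned to 5000 UMIs the shares were 6.27%, 11.9% and 0.68%.

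In the mesenchyme Gdnf was highest in late theca-like cells, at 12.8, 25.9, 40.7, 5.45 and 47.6 CPM from 2 to 6 wk. At 4 and 6 wk these levels were above those of antral-like (22.5 and 35.8 CPM) and Frzb-led granulosa cells (29.8 and 27.8 CPM). At 3 and 5 wk they were below those of antral-like cells (86.7 and 18.0 CPM). At 2 wk they lay between antral-like (11.3 CPM) and Frzb-led cells (21.2 CPM). The late theca-like subgroup held a pair of clusters. The cluster led by Cpa1 had 18.8, 32.3, 47.2, 19.1 and 54.8 CPM, and the cluster led by Cyp11a1 had 3.68, 17.5, 35.1, 2.38 and 32.3 CPM. Within each library the Cpa1-led cells were higher, and both clusters were low at 2 and 5 wk. The 5 wk library held 483 of the 872 Cyp11a1-led cells.

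Gfra1, the gene of the GDNF co-receptor, was found in rete ovarii-like cells, named from Pax8, Epcam and keratin and claudin genes. The rete ovarii is the epithelium of the ducts at the hilum. The leading genes of this cluster also included Ovgp1, the oviductal glycoprotein gene, and whether it held oviduct cells was not tested. The Gfra1 level was 88.6 CPM in the 53 cells of the 2 wk library and 151 CPM in the 31 cells of the 3 wk library. The 4 and 5 wk libraries held 5 and 1 such cells, with 6 and 0 UMIs, and the 6 wk library held 0, so the course after 3 wk is not measured. Over all libraries the level was 107 CPM (88.9 to 128) and 68.9% of the cells had a UMI (58.3 to 78.2), against 0 of 493 hematopoietic-like cells. The median rete ovarii-like cell had 11040 UMIs, and the thinned share was 42.9%. The second group in order, primordial-like granulosa cells, had 4.72 CPM (3.25 to 6.62) from 33 UMIs in 21 of 665 cells, and Col14a1-positive cells had 2.65 CPM (1.62 to 4.10). The ranges over libraries of the first and second group did not overlap.

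The other parts of the receptor complex were checked in the same cells. Ret, the kinase that GFRalpha receptors use, gave 115 UMIs in the whole series, 3 of them in rete ovarii-like cells (2.66 CPM, 0.548 to 7.76), and its highest level was 3.55 CPM in hematopoietic-like cells. Ncam1 had its highest level in rete ovarii-like cells, at 219.5 CPM (193 to 249), and so had the neurturin gene Nrtn, at 119.5 CPM (100.2 to 141). Of the 62 rete ovarii-like cells with a Gfra1 UMI, 49 also had a Ncam1 UMI, 31 a Nrtn UMI and 1 a Ret UMI. These are 79.0%, 50% and 1.61%, against 75.6%, 54.4% and 2.22% of all rete ovarii-like cells, so the shares were close to those of the whole group. Rete ovarii-like cells also had 13.3 CPM of Gdnf (7.43 to 21.9), from 15 UMIs.

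Gfra2, the gene of the neurturin co-receptor, was highest in Cd24a-positive mesenchymal cells, which also carry Col15a1, Ramp3 and Emcn. Its level there was 4.23, 21.9, 42.8, 31.9 and 37.7 CPM at 2, 3, 4, 5 and 6 wk, so the 2 wk library was the lowest by far. The cluster of these cells led by Ramp3 had 36.9 CPM and the one led by Batf had 11.6 CPM over the 5 libraries. Mitotic mesenchymal cells had 5.32, 13.2, 19.98, 22.5 and 19.7 CPM and pericyte-like cells had 12.8, 16.1, 13.7, 6.48 and 16.6 CPM, and all 3 groups overlapped over libraries. A Gfra2 UMI was found in 21.2% of Cd24a-positive cells (19.4 to 23.1) and in 2.23% of hematopoietic-like cells (1.12 to 3.96), and thinned from a median depth of 12150 and 6699 UMIs the shares were 11.4% and 1.36%. Of the 402 Cd24a-positive cells with a Gfra2 UMI, 0 had a Ret UMI and 24 (5.97%) had a Ncam1 UMI, against 0.105% and 8.22% of all Cd24a-positive cells.

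The first comparison asked how the members were divided between the mesenchyme and the granulosa. Of the 8 members, 6 were at least 2-fold higher in mesenchymal than in granulosa-like cells in each of the 5 libraries, where 11.8% of all 15258 genes tested were, and 0 were at least 2-fold lower in each library, where 8.02% of all genes were. The members were chosen with earlier results of these data known. These shares, and those of the age comparison below, are therefore a description and not a test of the list. The ratio of the mean levels was 90.02 for Bdnf (33.1 ± 12.4 against 0.368 ± 0.111 CPM, mean ± SD, n = 5 libraries), 85.9 for Ntrk2 (45.2 ± 16.7 against 0.527 ± 0.194 CPM) and 126 for Ntrk3 (20.4 ± 3.93 against 0.161 ± 0.0602 CPM). For Ngfr the ratio was 201 (15.1 ± 4.06 against 0.0750 ± 0.0502 CPM), for Gfra2 it was 28.2 (6.72 ± 2.61 against 0.239 ± 0.0530 CPM) and for Ntf3 it was 46.4 (1.18 ± 0.725 against 0.0255 ± 0.0200 CPM).

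Within single libraries these ratios ran from 50.6 to 142 for Bdnf, from 53.3 to 101 for Ntrk2, from 107 to 228 for Ntrk3 and from 12.03 to 36.8 for Gfra2. Ngfr was at 0 UMIs in the granulosa-like cells of the 5 wk library, so it was at least 172-fold higher in mesenchymal cells there by the limit of 3 UMIs, and it was 119 to 285 times higher in the other libraries. Ntf3 was at 0 in the granulosa-like cells of the 2 wk library, which gives at least 13.3-fold higher, and it was 22.4 to 58.4 times higher in the other libraries. Gdnf went the other way, at 9.89 ± 4.06 CPM in mesenchymal and 14.0 ± 6.15 CPM in granulosa-like cells. Its ratio was 0.902, 0.631, 0.771, 0.719 and 0.631 at 2 to 6 wk, below 1 in 5 of 5 libraries and never as low as 0.5. Gfra1 was under 1 CPM in both lineages, with a ratio over the summed libraries of 1.41 (0.997 to 2.01). By library its ratio was 1.12, 1.18, 2.05, 2.78 and 0.604 at 2 to 6 wk. The sizes of the large ratios differed with the grouping of cells. With clusters at resolution 0.6 they were 51.1 for Bdnf, 43.6 for Ntrk2, 50.4 for Ntrk3 and 63.9 for Ngfr. That run also lacked the second clustering, by which the main run set aside mixed cells. These were 415 granulosa-like cells with leading stromal genes (45.3% doublets) and 316 mesenchymal cells of a doublet cluster. Which of these differences moved the ratios was not tested.

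**Figure D3:**
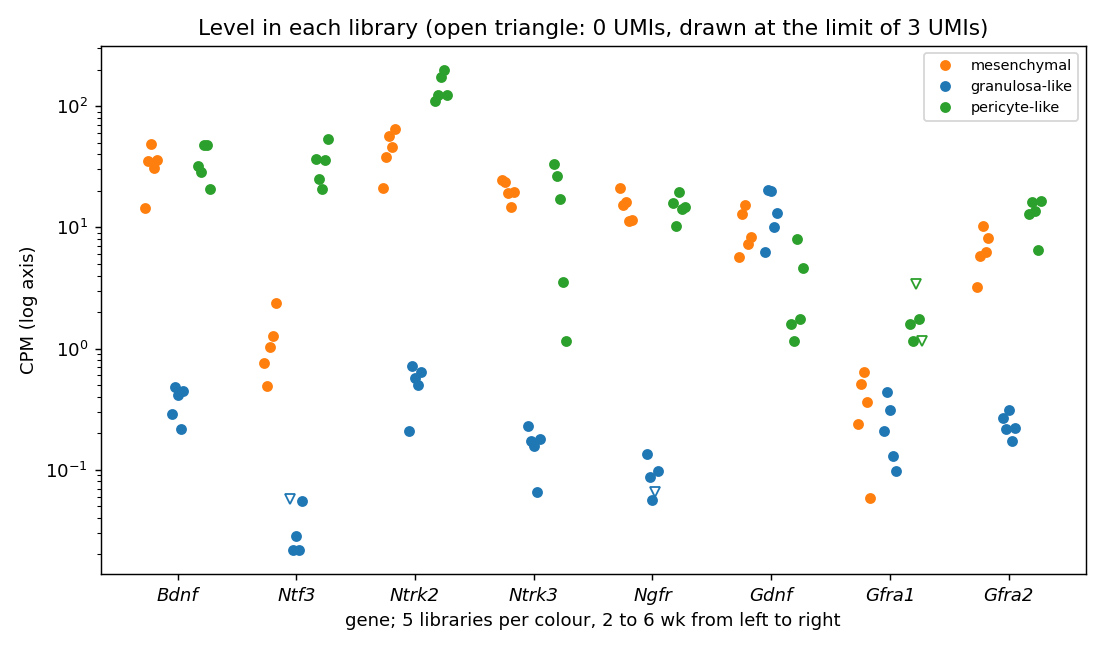
CPM on a log axis of each gene in the mesenchymal, granulosa-like and pericyte-like cells of each of the 5 libraries, drawn from 2 wk (left) to 6 wk (right) within a colour; open triangles are libraries with 0 UMIs, drawn at the level of 3 UMIs. The mesenchymal and granulosa-like points are far apart for Bdnf, Ntf3, Ntrk2, Ntrk3, Ngfr and Gfra2, and they interleave for Gdnf and Gfra1.

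The second comparison asked how the members differed between the 6 wk and 2 wk ovary. In mesenchymal cells 4 of the 7 members with enough UMIs were at least 2-fold higher at 6 wk, where 3.49% of all 12579 genes were, and 0 were at least 2-fold lower, where 5.69% of all genes were. Bdnf was 14.5, 35.3, 49.1, 30.8 and 35.7 CPM at 2, 3, 4, 5 and 6 wk, and the 6 wk level was 2.46 times the 2 wk level (counting interval 2.26 to 2.67). Ntrk2 was 21.2, 38.2, 56.6, 45.7 and 64.3 CPM, with a ratio of 3.03 (2.84 to 3.24). For both genes the 2 wk library was below every other library. Gfra2 (3.23 against 8.18 CPM, ratio 2.53, 2.12 to 3.04) and Ntf3 (0.765 against 2.37 CPM, ratio 3.099, 2.17 to 4.51) were higher at 6 wk too.

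Ngfr and Ntrk3 were lower. Ngfr was 21.2, 15.3, 16.2, 11.2 and 11.6 CPM, with a ratio of 0.546 (0.494 to 0.604), and Ntrk3 was 24.7, 23.5, 19.1, 14.8 and 19.6 CPM, with a ratio of 0.794 (0.731 to 0.862). Gdnf was 5.65, 12.9, 15.3, 7.30 and 8.29 CPM, with a ratio of 1.47 (1.26 to 1.71). In granulosa-like cells only Gdnf had enough UMIs to be read. Its ratio was 2.10 (1.85 to 2.39), past 2-fold, where 5.9% of the 12598 genes tested there were at least 2-fold higher and 5.72% at least 2-fold lower. These intervals cover counting error only, and the spread between animals of an age is not known. Past 2-fold was not kept by Gfra2 when the libraries were merged without integration (1.503). In that run a cluster with stromal markers, with 2547 of its 2711 cells from 2 wk, stayed unnamed because nearly all its cells came from 1 library. Its 2 wk mesenchymal cells lack that cluster, so its age ratios do not compare the same cells as the main run. When each cell weighed the same, past 2-fold was not kept by Bdnf (1.83), by Gfra2 (1.85) or by Gdnf in granulosa-like cells (1.90).

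The reads of the 2, 3 and 4 wk libraries were counted with Cell Ranger 3.1.0 and those of the 5 and 6 wk libraries with 6.0.1, so the age ratios were also taken within a version. The 4 wk level was 3.38 times the 2 wk level for Bdnf, 2.67 times for Ntrk2, 3.15 times for Gfra2, 2.71 times for mesenchymal Gdnf and 3.17 times for granulosa-like Gdnf. For Ntf3 it was 1.34 times (0.819 to 2.17), and its 6 wk level was 1.87 times the 5 wk level (1.35 to 2.62), so Ntf3 was past 2-fold within neither version. For Ngfr and Ntrk3 the 4 wk level was 0.763 and 0.775 of the 2 wk level. From 5 to 6 wk, over all mesenchymal cells, Ntrk2 differed by 1.41 times (1.33 to 1.49), Bdnf by 1.16 times (1.08 to 1.24) and Ntrk3 by 1.32 times (1.20 to 1.46), and the interval of Ngfr spanned 1 (0.916 to 1.17). Inside the mesenchymal subgroups, by intervals past 1, Bdnf was lower at 6 wk in 5 of 9 and higher in 2. Ntrk3 was higher in 0 of 8 and lower in 1, and Ngfr was higher in 0 of 7 and lower in 4. Ntrk2 was higher in 4 of 10 and lower in 0. Bdnf, Ntrk2 and Gfra2 were thus past 2-fold from 2 to 4 wk, between libraries of version 3.1.0. From 5 to 6 wk Gfra2 was also higher over all mesenchymal cells, at 1.30 times (1.12 to 1.52). Whether the version had a part in the age ratios was not tested.

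The mix of mesenchymal subgroups differed between libraries, so the age ratios were also read inside each subgroup with at least 20 UMIs of the gene. Ntrk2 was higher at 6 wk, with an interval above 1, in 8 of 10 subgroups and lower in 0, with a median ratio of 3.18. Its largest ratios were 9.77 (6.89 to 14.2) in Hoxd9-positive cells, from 6.48 to 63.4 CPM, and 9.16 (5.84 to 15.1) in contractile smooth muscle-like cells, from 4.52 to 41.4 CPM. The intervals of Col14a1-positive and late theca-like cells spanned 1. Bdnf was higher in 6 of 9 subgroups and lower in 0, with the largest ratio in early theca-like cells at 4.79 (3.80 to 6.09), and in Hoxd9-positive cells the interval spanned 1 (0.996, 0.768 to 1.29).

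Ngfr was lower at 6 wk in 7 of 9 subgroups and higher in 0, with a median ratio of 0.574. Early theca-like and Col11a1-positive cells were its exceptions, at 0.976 (0.748 to 1.27) and 0.914 (0.730 to 1.14). Ntrk3 was lower in 3 of 9 subgroups, Col14a1-positive, Cxcl12-positive and Cd24a-positive cells, and higher in early theca-like cells at 1.62 (1.21 to 2.18). Gfra2 was higher in 2 of 6 subgroups, 8.91 times (5.70 to 14.7) in Cd24a-positive cells and 3.70 times (2.74 to 5.03) in mitotic cells, and lower in contractile smooth muscle-like cells at 0.152 (0.0460 to 0.398). Gdnf was higher in late theca-like (3.73, 2.56 to 5.55), mitotic and early theca-like cells and lower in Col11a1-positive (0.483, 0.262 to 0.855) and Hoxd9-positive cells. Among the 11 granulosa-like groups with enough UMIs it was higher at 6 wk in 6, among them antral-like (3.17, 2.00 to 5.29), mitotic (2.49, 1.65 to 3.89) and Psd-led cells (4.08, 2.03 to 9.59), and lower in 1, the remodeling cells (0.492, 0.278 to 0.929). The intervals of the other 4, primary-like cells among them, spanned 1. The remodeling ratio rests on 15 UMIs at 2 wk and does not compare the same clusters. There 119 of the 129 cells at 2 wk were of the Pamr1-led cluster, against 153 of 817 at 6 wk. In pericyte-like cells Ntf3 was 1.45 times higher at 6 wk (1.04 to 2.08), and the intervals of Bdnf, Ntrk2, Ngfr and Gfra2 spanned 1.

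**Figure D4:**
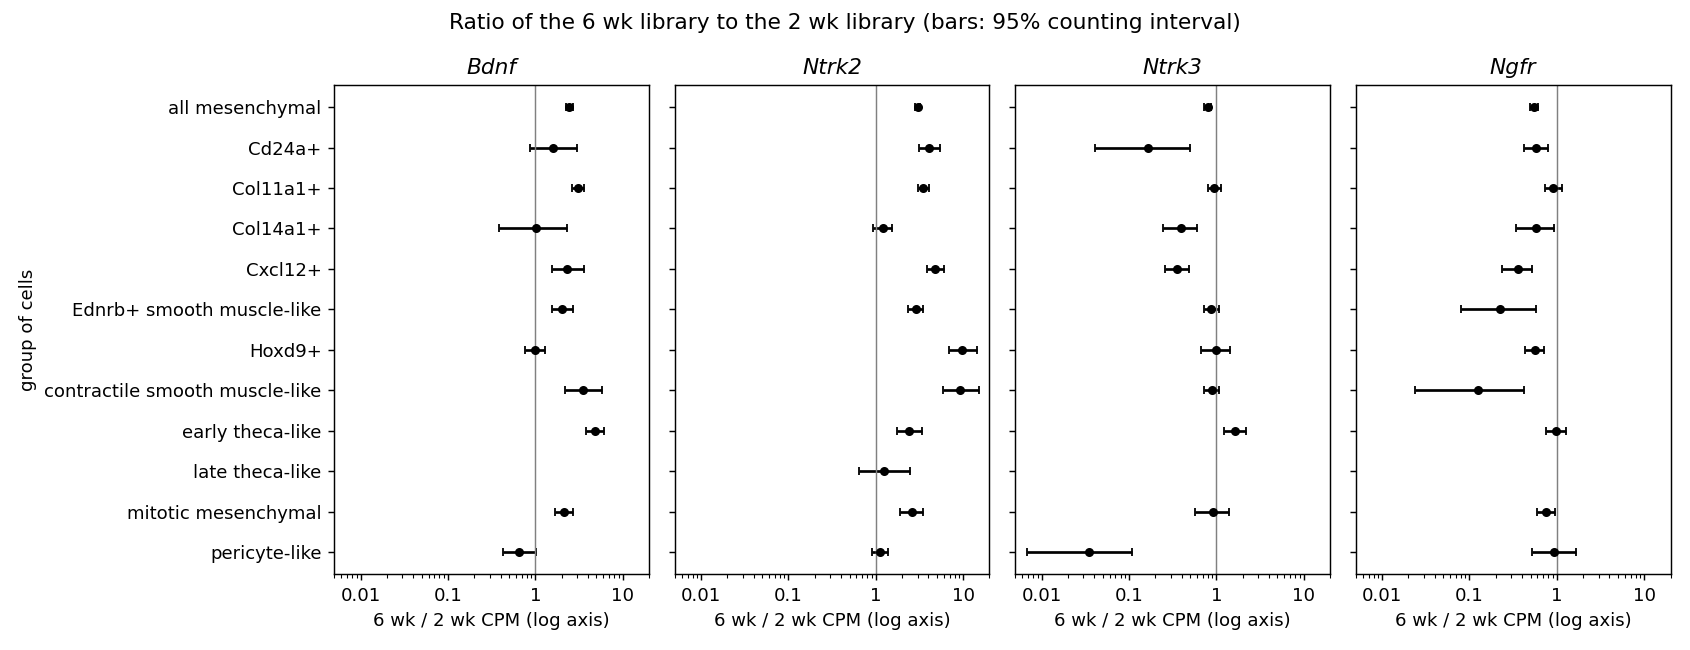
Ratio of the CPM in the 6 wk library to that in the 2 wk library (log axis) for Bdnf, Ntrk2, Ntrk3 and Ngfr in all mesenchymal cells, in each mesenchymal subgroup and in pericyte-like cells, with 95% counting intervals; a gene with under 20 UMIs over both libraries of a group has no point. Most Ntrk2 points lie right of 1, most Ngfr points left of 1, and the Ntrk3 point of the pericyte-like cells lies at 0.0346.

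The other genes of these pathways were read from a list of 35 genes, of which 29 had enough UMIs for the lineage comparison. Of them 8 were at least 2-fold higher in mesenchymal cells in each library (Sorcs2, Shc2, Pcsk5, Gfra4, Ncam1 and Gas1 among them), and 1 was at least 2-fold lower (Sorl1). Of all genes tested, 11.8% were higher and 8.02% lower by the same rule. The median log2 ratio of mesenchymal over granulosa-like cells was 0.14 for the list, 5.98 for the 8 members and -0.16 for all genes tested. The NT-4 gene Ntf5 was at 3.14 CPM in mesenchymal and 5.65 CPM in granulosa-like cells.

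Sorcs2 and Sort1 encode sortilin-family receptors, which bind the proneurotrophins together with p75NTR. Sorcs2 was at 65.4 CPM in mesenchymal and 3.19 CPM in granulosa-like cells, and Sort1 was highest in pericyte-like cells at 56.8 CPM (51.5 to 62.6). Signalling adaptors and processing proteases went either way. Frs2 (23.9 against 34.0 CPM in mesenchymal against granulosa-like cells), Kidins220 (36.4 against 33.0 CPM) and Furin (29.9 against 20.6 CPM) were within 2-fold on average, the adaptor Shc2 (8.16 against 0.735 CPM) and the protease Pcsk5 (94.6 against 19.6 CPM) were higher in mesenchymal cells, and the protease Pcsk6 had 16.6 against 66.3 CPM. The other GDNF family ligands and co-receptors Artn, Pspn, Gfra3 and Gfral had 82, 54, 100 and 0 UMIs in the whole series.

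Between 2 and 6 wk the same list had 28 genes with enough UMIs in mesenchymal cells. Of these, 1 was at least 2-fold higher at 6 wk and 5 were at least 2-fold lower (Ntf5, Sorcs1, Sorcs3, Pcsk6 and Gas1). Of all genes tested in mesenchymal cells, 3.49% were at least 2-fold higher and 5.69% at least 2-fold lower. Gas1, which encodes a GFRalpha-related membrane protein and hedgehog co-receptor, was at 162 CPM at 2 wk and 76.9 CPM at 6 wk. In granulosa-like cells 3 of 24 were at least 2-fold higher (Sort1, Sdc3 and Dok4) and 5 were at least 2-fold lower (Sorcs3, Sorl1, Pcsk6, Nrtn and Ncam1). Of all genes tested in granulosa-like cells, 5.9% were at least 2-fold higher and 5.72% at least 2-fold lower. There Nrtn was 16.5 CPM at 2 wk and 7.83 CPM at 6 wk, while Gdnf was 6.26 and 13.1 CPM.

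The genes most like each member were taken over 21 named groups among 13231 genes, by Pearson's r of log2(CPM + 1), as a description with no test. The groups share libraries and lineage, so r can be high from the lineage split, and its part was not tested. Bdnf was most like Adcy5 (r = 0.94), Mamdc2 (0.93) and Pth1r (0.91), and Ntrk2 was like Abca8a and Pth1r (each 0.95). Ntrk3 was most like Fam26e (0.94), Itgbl1 (0.94) and Ssc5d (0.93), Ngfr like Fmo1 (0.93), Olfml3 (0.92) and Vash2 (0.92), and Ntf3 like Rbm24 (0.93), Itga10 (0.89) and Map3k7cl (0.88). Gdnf was most like Greb1 (0.89), Pycrl (0.89) and Ogdhl (0.87), Gfra1 like S100g (0.92), Smim19 (0.89) and Efcab2 (0.89), and Gfra2 like Lrrc55 (0.88), Steap4 (0.82) and Gm6213 (0.81). Among the members, Ntrk2 and Ntrk3 had the highest r (0.86), followed by Bdnf with Ntrk3 (0.84), Ntrk2 with Ngfr (0.84) and Bdnf with Ntrk2 (0.84), whereas Gdnf was at -0.39 with Ntrk2 and Gfra1 was between -0.18 and 0.20 with every other member.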

How the data were processed

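The authors ran Cell Ranger with its defaults on mm10 (version 3.1.0 for the 2, 3 and 4 wk libraries and 6.0.1 for the 5 and 6 wk libraries, per the file headers), and deposited raw UMI counts by gene for the barcodes called cells. The submitters' processing notes also name Seurat 4.1.0. Here the libraries were integrated and clustered with the steps of the study's methods in Seurat 5.3.0 (R 4.3.3, resolution 1), with 1992 of 2000 variable genes, since 8 genes of the pathways were left out. Mesenchymal and granulosa-like cells were clustered again. A cluster was named when at least 3 markers were detected; clusters of low UMIs without leading markers, of at least 50% doublets (Scrublet in scanpy 1.11.5), of over 90% cells of 1 library or with leading genes of another class stayed unnamed, and these limits were set after clusters were seen. The members, pathway list and markers were chosen with earlier results of these data known. All 8 members are named; likeness used genes with at least 500 UMIs. Calls past 2-fold used genes with at least 100 UMIs over the groups compared. Intervals are exact Poisson, exact binomial, or exact conditional on the sum of 2 counts, computed with scipy 1.17.1 and tested on simulated data. They cover counting error only. A count of 0 allows up to 3. With 1 library per age no test was made between ages, and lineages were compared within libraries without one. Library depth was 93438618 to 144609431 UMIs. Doublets called within named clusters stayed in the main values. Alternatives changed the denominator, doublets, cell filter, clustering, weighting, libraries and UMI minimum. Protein sequences and promoters of Ntrk3 and Gfra2 were not used here. Results of some genes of the marker, pathway and likeness lists are not reported here.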

Additional observations from a re-analysis of the deposited data

How the results depend on the processing

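Of the lineage ratios, those of Bdnf, Ntf3, Ntrk2, Ntrk3, Ngfr, Gdnf and Gfra2 kept their direction under each alternative run. The interval of Gfra1 spanned 1, so it had no direction to keep. With each library left out in turn the lineage ratios ran from 81.6 to 97.3 for Bdnf, 40.4 to 51.4 for Ntf3, 81.1 to 98.03 for Ntrk2, 117 to 134 for Ntrk3, 171 to 230.0 for Ngfr, 0.683 to 0.740 for Gdnf, 1.34 to 1.73 for Gfra1 and 26.2 to 32.8 for Gfra2. With clusters at resolution 0.6 the ratio was 51.1 for Bdnf, 43.6 for Ntrk2, 50.4 for Ntrk3 and 63.9 for Ngfr. Without integration it was 49.3 for Ntrk2, 71.4 for Ntrk3 and 89.4 for Ngfr. Both runs used the first clustering only, without the second clustering by which the main run set aside mixed cells. With equal weight per cell it was 0.581 for Gdnf. Of the 6 wk to 2 wk ratios in mesenchymal cells, merging without integration gave 3.35 for Bdnf, 2.51 for Ntrk2, 0.637 for Ntrk3, 1.72 for Gdnf and 1.503 for Gfra2. That run left unnamed a cluster with stromal markers of 2711 cells, 2547 of them from 2 wk, so its 2 wk mesenchyme lacks them. Equal weight per cell gave 1.83 for Bdnf, 3.49 for Ntrk2, 0.661 for Ntrk3, 1.04 for Gdnf and 1.85 for Gfra2, and 1.90 for Gdnf in granulosa-like cells. The 4 wk to 2 wk ratio was 3.38 for Bdnf, 1.34 for Ntf3, 2.67 for Ntrk2, 0.763 for Ngfr, 2.71 for Gdnf and 3.15 for Gfra2. The 6 wk to 5 wk ratio was 1.16 for Bdnf, 1.87 for Ntf3, 1.41 for Ntrk2, 1.14 for Gdnf and 1.30 for Gfra2, and it was above 1, the other direction, for Ntrk3 (1.32) and Ngfr (1.03). Equal weight per subgroup, chosen after seeing the data like the split of the lineage ratios by Cell Ranger version, gave 2.56 for Ntrk2, 0.655 for Ntrk3, 0.613 for Ngfr and 1.77 for Gdnf. For Gdnf in granulosa-like cells the ratio was 2.45 with the stricter cell filter, 3.17 for 4 wk to 2 wk and 1.29 for 6 wk to 5 wk. The cause of these shifts was not tested. With a minimum of 20 or 500 UMIs, the genes at least 2-fold higher at 6 wk numbered 717 or 231 in mesenchymal and 1261 or 411 in granulosa-like cells, and those lower 1417 or 314 and 1184 or 408. Thinned to 5000 UMIs, with shallower cells left out, the share of cells with a UMI was 21.2% for Bdnf, 16.1% for Ntf3, 41.6% for Ntrk2, 28.7% for Ntrk3, 22.9% for Ngfr, 11.9% for Gdnf, 42.9% for Gfra1 and 11.4% for Gfra2, each in the group with its highest CPM. The group with the highest share can be another, as for Ntrk2 in pericyte-like cells (43.3% thinned). No paired analysis between ages was possible because each age has 1 library, so the ages share no second replicate number. The lineage ratios were taken within libraries, with no test. Depth limits Gfra1 and Ntf3 most, with 291 and 598 UMIs in all.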
